A study of Homo sapiens with 12 samples.

Results

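DEPTOR and 9 genes of the mTOR complexes and their regulators were followed across 12 RNA sequencing libraries of OCI-LY1 and VAL, a pair of human diffuse large B-cell lymphoma lines. The 10 genes (DEPTOR, MTOR, RPTOR, RICTOR, MLST8, AKT1S1, TSC1, TSC2, RHEB and TELO2) were taken by symbol from 60603 genes in the count tables. All 10 passed the filter on low counts, along with 17057 genes in all. They were chosen by the level of DEPTOR, which was lower with wild-type BCL7A than with empty vector in both lines. The DEPTOR values of that contrast are therefore given below as a description with no test.

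Cells of each line were transduced with the empty vector, with wild-type BCL7A or with delta27-BCL7A, a splice-site mutant of this SWI/SNF chromatin remodelling subunit. Per the labels, BCL7A was delivered as its short and long forms in 3 rounds of infection at a multiplicity of 2. The vectors carried the ZsGreen1 reporter, and reporter-positive cells were sorted in all 6 groups, the empty vector ones included. Each group held 2 libraries from separate transductions. OCI-LY1 cells were collected on day 10 and VAL cells on day 17, so line and day cannot be told apart.

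mTOR is a protein kinase that couples growth factors, amino acids and energy to protein synthesis, lipid synthesis and autophagy. It works in mTORC1, built on the scaffold RPTOR, and in mTORC2, built on RICTOR, while MLST8 belongs to both. DEPTOR binds mTOR in both complexes and restrains it, and AKT1S1 (PRAS40) restrains mTORC1. RHEB in its GTP-bound form switches mTORC1 on at the lysosome, and the complex of TSC1 and TSC2 switches RHEB off. TELO2 helps newly made mTOR and related kinases to fold and assemble. In B cells, signalling from the B cell receptor through phosphatidylinositol 3-kinase feeds into this pathway.

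The levels of the scaffolds RPTOR and RICTOR differed in opposite directions between the lines, and the delta27-BCL7A contrasts called 1 of them in each line, so stretches of their promoters are shown. Both are 200 bases from RefSeq on GRCh38.p14, read 5′ to 3′ on the strand of the gene, and contain no annotated exon of GENCODE release 29. Capitals mark the GC box, GGGCGG on either strand.

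RPTOR promoter, chr17:80544588-80544787, plus strand: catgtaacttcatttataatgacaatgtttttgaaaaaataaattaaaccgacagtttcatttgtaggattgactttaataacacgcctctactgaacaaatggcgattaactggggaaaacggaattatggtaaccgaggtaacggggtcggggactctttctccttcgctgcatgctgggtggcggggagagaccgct

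RICTOR promoter, chr5:39074450-39074649, minus strand: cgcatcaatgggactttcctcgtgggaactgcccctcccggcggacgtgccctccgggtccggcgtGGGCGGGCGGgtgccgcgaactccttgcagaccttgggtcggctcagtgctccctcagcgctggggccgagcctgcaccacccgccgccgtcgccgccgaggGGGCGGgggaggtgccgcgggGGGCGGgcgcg

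The RICTOR stretch had a GC content of 77.0% and held 4 GC box matches, of which 2 overlap each other. The RPTOR stretch had a GC content of 42.5% and held none. A GC box was present in 35% of 35116 promoter windows of this length. Neither stretch held an E-box (CACGTG, in 4.51% of windows), a CRE (TGACGTCA, 0.951%) or a CCAAT box (CCAAT, 27.4%), searched on both strands. These matches describe the letters of the windows and were not tied to the expression values.

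Library totals of gene counts ran from 21839547 to 24935893. BCL7A itself was read in every library first, in CPM, the count of a gene scaled to the TMM-adjusted size of its library. In OCI-LY1 it stood at 155 and 157 CPM with empty vector, 576 and 578 with wild type and 573 and 588 with delta27. In VAL the pairs were 291 and 283, then 454 and 472, then 490 and 485, so the constructs added less in VAL. All 6 B cell markers and all 4 germinal-centre markers were at 1 CPM or more in every library. The summed B cell markers reached 2310 to 2430 CPM in OCI-LY1 and 2980 to 3320 in VAL, and 5 T cell markers summed to 0.168 CPM at most in OCI-LY1 and 1.34 in VAL. The sum of 5 myeloid markers was 0.257 CPM at most in OCI-LY1 and 2.24 to 3.03 in VAL. Their part in the results was not tested.

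DEPTOR (ENSG00000155792.10; GRCh38 chromosome 8, 119873717 to 120050913, plus strand) was scarce in OCI-LY1 and well expressed in VAL, and was lowest with wild-type BCL7A in both. In OCI-LY1 the 2 libraries had 2.39 and 2.01 CPM with empty vector, 1.24 and 1.3 with wild type, and 2.03 and 1.48 with delta27. In VAL they had 28.4 and 26.3 CPM with empty vector, 16.5 and 17.9 with wild type, and 26.2 and 27.1 with delta27. Both wild-type libraries lay below all 4 other libraries of their line, while the delta27 and empty vector libraries overlapped. In bulk RNA, fewer cells with DEPTOR and less DEPTOR RNA per cell cannot be told apart.

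The summed level of 5 stromal and epithelial markers was lowest with wild type in both lines too. In OCI-LY1 it stood at 28.0 and 25 CPM with empty vector, 18.8 and 19.1 with wild type and 24.0 and 22.2 with delta27. In VAL it stood at 35.2 and 36.0 CPM, then 32.8 and 31.6, then 33.3 and 34.3. EPCAM made up most of the sum in OCI-LY1 and PECAM1 most of it in VAL, while the collagen gene COL1A2 was at 0 CPM in all OCI-LY1 libraries and at 0.0914 at most in VAL, and EPCAM was at 0 in VAL. The part of these markers in the DEPTOR values was not tested.

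The OCI-LY1 values rest on few reads. The 2 wild-type libraries there held 29 and 30 DEPTOR counts, with exact 95% Poisson intervals of 19.4 to 41.6 and 20.2 to 42.8, which cover counting error only. The empty vector libraries held 57 and 48 counts and the delta27 libraries 48 and 35. In VAL the counts ran from 360 and 387 with wild type to 631 and 593 with delta27.

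**Figure D1:**
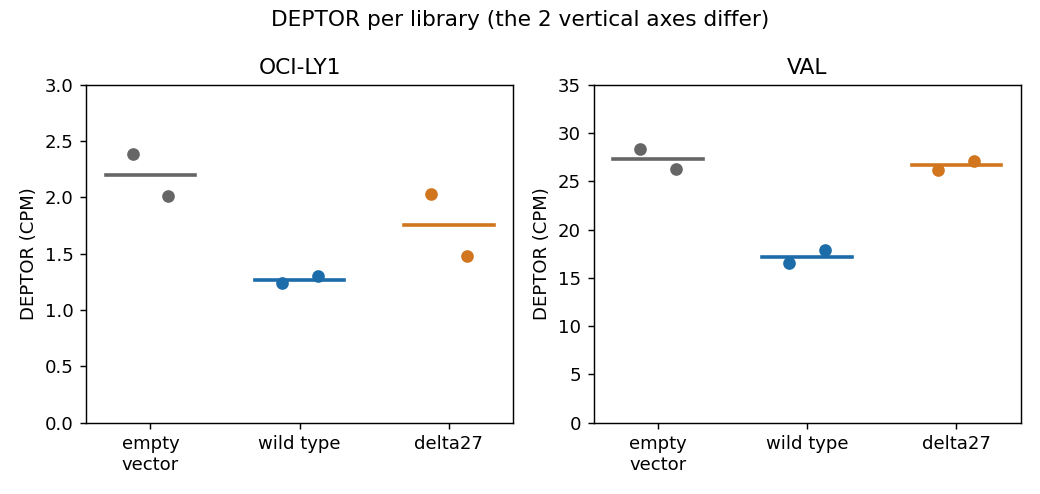
DEPTOR in CPM (vertical axes, which differ between the panels) in each of the 12 libraries, by construct (horizontal axis). Points are libraries and bars are means of 2. The wild-type points lie lowest in each line, at 1.24 and 1.3 CPM in OCI-LY1 and at 16.5 and 17.9 CPM in VAL.

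Wild type against empty vector, the contrast that chose the gene, gave a DEPTOR log2 fold change of -0.79 (SE 0.23) in OCI-LY1 and -0.67 (SE 0.09) in VAL. Among all genes tested, 31 (0.182%) were called lower in that contrast in both lines by edgeR's quasi-likelihood test at an adjusted p under 0.05. Delta27 against empty vector gave -0.32 (SE 0.21) in OCI-LY1 and -0.04 (SE 0.08) in VAL. Wild type against delta27 gave -0.46 (SE 0.24) in OCI-LY1 and -0.63 (SE 0.09) in VAL. These contrasts share the empty vector or wild-type libraries with the one that chose DEPTOR, so they are given as sizes only. Their SEs do not allow for that choice.

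The kinase gene MTOR (ENSG00000198793.12; chromosome 1, 11106535 to 11262507) had nearly the same level in both lines. Its libraries read 140 and 150 CPM with empty vector, 165 and 162 with wild type and 154 and 156 with delta27 in OCI-LY1. In VAL they read 149 and 147, then 137 and 162, then 166 and 165. The 2 VAL wild-type libraries spanned almost the full range of the gene, so a construct effect there is poorly resolved. MLST8 (ENSG00000167965.18; chromosome 16, 2204248 to 2209416), which stabilises the kinase domain, stayed between 42.0 and 49.2 CPM in all 12 libraries.

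RPTOR (ENSG00000141564.15; chromosome 17, 80544819 to 80966371), the scaffold that brings substrates to mTORC1, was abundant in OCI-LY1 and low in VAL. Its OCI-LY1 libraries read 171 and 184 CPM with empty vector, 169 and 167 with wild type and 172 and 169 with delta27. In VAL they read 33.3 and 35.3, then 31.7 and 39.6, then 41.4 and 40.8. The lines did not overlap, and in VAL both delta27 libraries were above the other 4.

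RICTOR (ENSG00000164327.13; chromosome 5, 38937919 to 39074408), the scaffold of mTORC2, ran the other way between the lines. Its OCI-LY1 libraries read 48.3 and 46.2 CPM with empty vector, 57.9 and 58.8 with wild type and 59.5 and 66.0 with delta27. In VAL they read 81.6 and 76.3, then 71.6 and 86.9, then 89.2 and 87.8. In OCI-LY1 all 4 libraries with either form of BCL7A were above both empty vector libraries. MTOR, RPTOR and RICTOR were each lower in the first VAL wild-type library than in the second.

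AKT1S1 (ENSG00000204673.10; chromosome 19, 49869033 to 49878459), the mTORC1 inhibitor, read 46.5 to 52.3 CPM over the OCI-LY1 libraries and 20.7 to 25.1 over those of VAL. RHEB (ENSG00000106615.10; chromosome 7, 151466012 to 151520120), the activating GTPase, read 103 to 114 CPM in OCI-LY1 and 44.3 to 49.8 in VAL. Neither gene's libraries overlapped between the lines, and within each line the 3 constructs lay close together.

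TSC1 (ENSG00000165699.14; chromosome 9, 132891348 to 132946874) read 55.1 to 61.7 CPM in OCI-LY1 and 66.7 to 80.2 in VAL. Its partner TSC2 (ENSG00000103197.18; chromosome 16, 2047465 to 2089487) read 70.1 to 83.7 CPM in OCI-LY1 and 58.8 to 66.4 in VAL. The pair was thus shifted in opposite directions between the lines on this scale. TELO2 (ENSG00000100726.15; chromosome 16, 1493344 to 1510457) read 51.4 to 61.1 CPM in OCI-LY1 and 59.8 to 67.4 in VAL, with overlap.

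**Figure D2:**
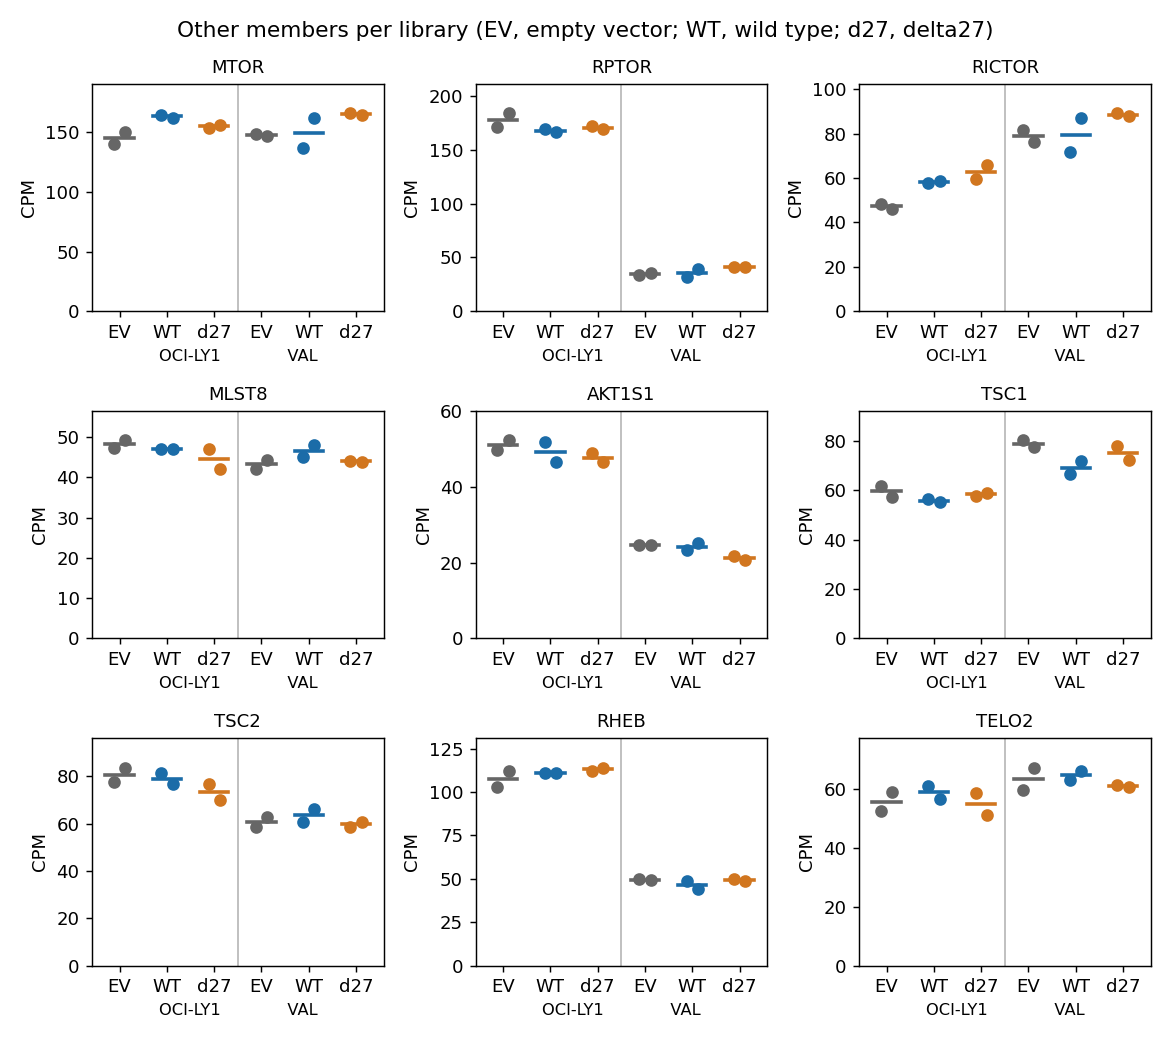
The 9 other members in CPM (vertical axes, each from 0) in each library, by construct and line. Points are libraries and bars are means of 2. RPTOR, AKT1S1, RHEB and TSC2 lie lower in every VAL library than in any OCI-LY1 library, and RICTOR and TSC1 lie higher. RPTOR lies at 167 to 184 CPM in OCI-LY1 and 31.7 to 41.4 in VAL.

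Delta27-BCL7A against empty vector called 1 of the 9 members in each line, and a different one. In OCI-LY1 RICTOR rose from 47.2 CPM ± 1.5 (SD, n = 2) to 62.7 ± 4.6. The log2 fold change was 0.41 (SE 0.07, adjusted p = 8.4e-05 by edgeR's quasi-likelihood test), and both delta27 libraries were above both controls. In VAL RPTOR rose from 34.3 CPM ± 1.4 (SD, n = 2) to 41.1 ± 0.41. That log2 fold change was 0.26 (SE 0.07, adjusted p = 0.032 by edgeR's quasi-likelihood test). The RPTOR libraries were apart too. The share of all genes with libraries apart is not given here, so nothing is read from it. Over all genes 19.6% were called in OCI-LY1 and 5.13% in VAL, with 10.4% and 2.5% called higher, so 1 member of 9 is near the OCI-LY1 background for higher calls.

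The size of the RICTOR change and the call of the RPTOR change depended on the processing. In OCI-LY1 the fold changes of all genes in this contrast fell with GC content (Spearman rho -0.412 across genes, which are not independent). RICTOR transcripts have a GC content of 37.7%, and after each library was corrected for its trend with GC content and length the RICTOR change was 0.17 (edgeR adjusted p = 0.0258). Reads set aside for poor alignment made up 3.92% and 3.01% with delta27 there and 4.8% and 6.9% with empty vector, and the part of this in the result was not tested. The RPTOR log2 fold change stayed between 0.21 and 0.29 under the alternatives run, but its call was lost with limma-voom (adjusted p = 0.0593), with VAL fitted alone by edgeR (adjusted p = 0.117) and when any VAL library of either group was left out. Without empty vector library 1, library 2, delta27 library 1 or library 2, edgeR gave adjusted p = 0.279, 0.0755, 0.261 and 0.139. RPTOR transcripts have a GC content of 58.4%, and the corrected RPTOR change was 0.28.

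The lines were then compared directly for these changes. The delta27 effect on RPTOR was larger in VAL than in OCI-LY1 by 0.32 (SE 0.09, adjusted p = 0.0743 by edgeR's quasi-likelihood test), and that on RICTOR differed by -0.24 (SE 0.10, adjusted p = 0.256, same test). Neither difference passed the threshold. Of the 9 members 0 were called by edgeR for this line difference, with 2 at an unadjusted p under 0.05 (RICTOR and RPTOR) and 0 by DESeq2 or limma-voom, against 1.51% of all genes by edgeR. When either VAL wild-type library was left out of the fit, the difference was 0.29 for RPTOR and -0.28 for RICTOR. The VAL wild-type group is in neither arm of this contrast.

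Other members shifted little with delta27. In VAL MTOR had a log2 fold change of 0.16 (SE 0.06, adjusted p = 0.0856 by edgeR's quasi-likelihood test) and AKT1S1 one of -0.22 (SE 0.08, adjusted p = 0.106, same test). In OCI-LY1 TSC2 had -0.14 (SE 0.06, adjusted p = 0.107 by edgeR's quasi-likelihood test). None of these 3 passed the threshold. With either VAL wild-type library left out of the fit, MTOR had 0.13 in OCI-LY1 and 0.16 in VAL.

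Wild type against delta27, the contrast of the mutation itself, called 0 of the 9 members in OCI-LY1 by edgeR, against a background of 3.05% called in either direction. At an unadjusted p under 0.05 the count was also 0, as it was with DESeq2 and limma-voom. In VAL edgeR called 0 of 9 against a background of 9.07%, DESeq2 and limma-voom called 0, and 4 had an unadjusted p under 0.05. These were RPTOR (-0.21, SE 0.07), RICTOR (-0.16, SE 0.07) and MTOR (-0.15, SE 0.06), lower with wild type, and AKT1S1 (0.19, SE 0.08), higher with it. Without the second VAL wild-type library MTOR, RPTOR and RICTOR had -0.26, -0.36 and -0.29, from a group of 1 library. The 95% intervals of all 9 members in both lines lay between -0.36 (RPTOR) and 0.35 (AKT1S1), both in VAL. The line difference of this contrast called 0 of 9 by edgeR, DESeq2 or limma-voom, with 1 (MTOR, -0.22, SE 0.08) at an unadjusted p under 0.05 and a background of 0.451% by edgeR. Without the second VAL wild-type library this line difference was -0.34 for MTOR and -0.35 for RPTOR.

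Wild type against empty vector is the contrast the selection used, and nothing is read from its counts. In OCI-LY1 2 of the 9 other members were called higher and 0 lower by edgeR, where the background was 6.23% higher and 5.21% lower. These were RICTOR, with a log2 fold change of 0.30 (SE 0.07), and MTOR, with 0.17 (SE 0.06). Without the first or second empty vector library or the first wild-type library there 1 was called, and without the second wild-type library 0. In VAL 0 of 9 were called by edgeR, DESeq2 or limma-voom, and 1 (TSC1, -0.19, SE 0.06) had an unadjusted p under 0.05, beside a background of 1.62% by edgeR. Without the second wild-type library TSC1 had -0.23. The other 8 VAL values lay between -0.09 (RHEB) and 0.11 (MLST8).

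**Figure D3:**
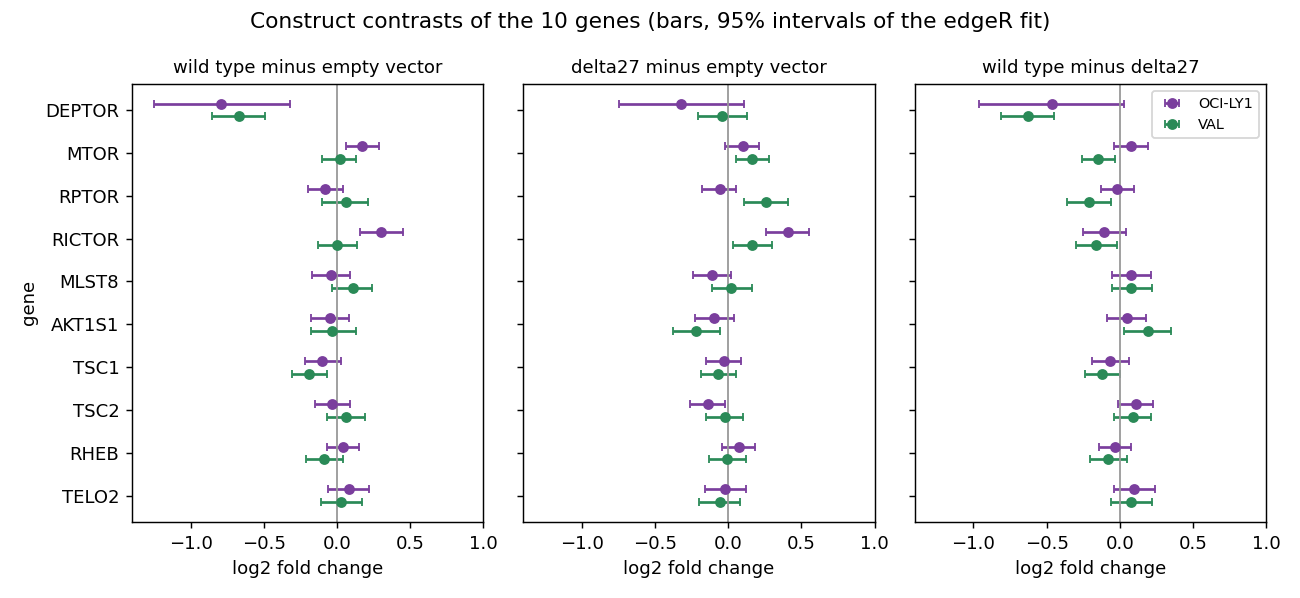
Log2 fold change (horizontal axes) of each of the 10 genes in the 3 construct contrasts, for OCI-LY1 and VAL. Points are estimates of the edgeR fit and bars are 95% intervals. DEPTOR was chosen by its fall with wild type against empty vector (-0.79 in OCI-LY1 and -0.67 in VAL), so its bars carry no test. The 9 others lie between -0.22 and 0.41.

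The lines differed far more than the constructs did. In the delta27 libraries, which the selection did not use, DEPTOR was 15.1-fold higher in VAL than in OCI-LY1. The log2 fold change was 3.92 (SE 0.13, adjusted p = 7.14e-25 by edgeR's quasi-likelihood test). The same difference was 12.4-fold with empty vector and 13.5-fold with wild type, given as values since those libraries chose the gene. Leaving out libraries and changing the tool, scaling or filter kept it between 3.7 and 4.16 in the delta27 libraries.

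Of the 9 other members 7 were called between the lines with delta27 by edgeR, 3 higher and 4 lower in VAL, against a background of 72.9% of all genes (37.2% higher and 35.7% lower). With empty vector 8 were called (background 73.4%) and with wild type 7 (72.8%). The members were thus called about as often as genes in general, and the sizes carry the information.

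RPTOR was 4.14-fold lower in VAL with delta27 (log2 fold change -2.05, SE 0.07, adjusted p = 1.08e-24 by edgeR's quasi-likelihood test), 5.18-fold lower with empty vector and 4.72-fold lower with wild type. RHEB was 2.3-fold lower in VAL with delta27 (log2 fold change -1.20, SE 0.06) and AKT1S1 2.24-fold lower (-1.16, SE 0.07). All 6 VAL libraries were below all 6 OCI-LY1 libraries for each of these 3 genes and for TSC2, and above them for RICTOR and TSC1. The share of all genes that separate in this way is not given here. RICTOR was higher in VAL by 0.50 (SE 0.07) with delta27 and by 0.74 (SE 0.07) with empty vector. With the correction for GC content and length these became 0.24 and 0.34, both still called by edgeR.

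The remaining members differed by little, and the correction turned several of them. TSC2 was lower in VAL by a log2 fold change of -0.29 (SE 0.06) with delta27, and by -0.77 once corrected. TSC1 was higher by 0.36 (SE 0.06), and had -0.08 once corrected. TELO2 was higher by 0.15 (SE 0.07, adjusted p = 0.047 by edgeR's quasi-likelihood test), and had -0.03 once corrected. MTOR had 0.10 (SE 0.06, adjusted p = 0.122, same test) and -0.23 once corrected. MLST8 had -0.02 (SE 0.07, adjusted p = 0.776 by the same test) and -0.16 once corrected. In the delta27 libraries the sign of the line difference of TSC1, TELO2 and MTOR therefore depended on the correction. EdgeR called none of these delta27 differences in both fits. With empty vector TELO2 had 0.19 and 0.16 once corrected, and with wild type MTOR had -0.13 and -0.42 once corrected. Both were called by edgeR in both fits, though neither call held under every alternative. TSC1 with empty vector had 0.40, and 0.02 once corrected, which was not called. The signs of DEPTOR, RPTOR, RHEB, AKT1S1, TSC2 and RICTOR did not depend on it.

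**Figure D4:**
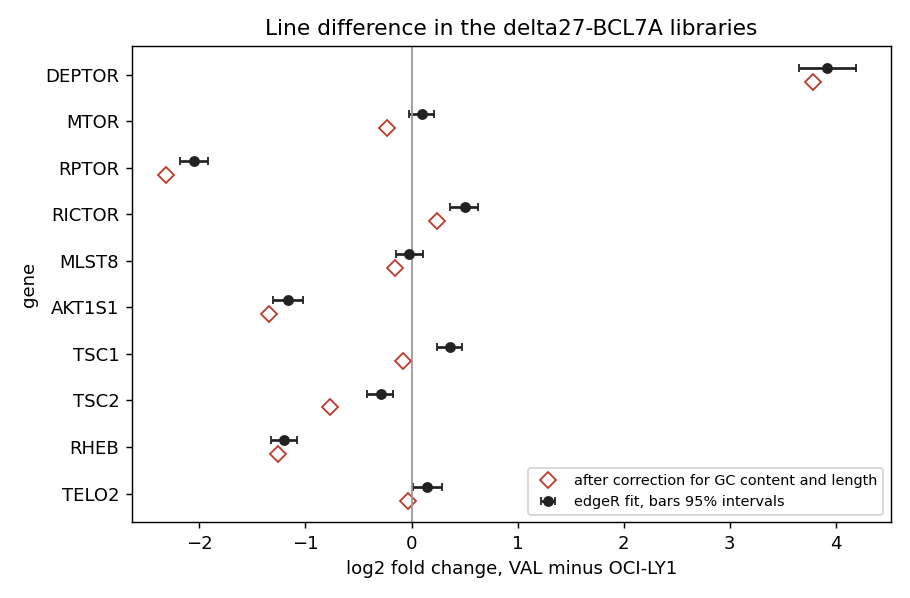
Log2 fold change of VAL over OCI-LY1 in the delta27-BCL7A libraries (horizontal axis) for each gene. Filled points with 95% bars come from the edgeR fit and open diamonds from the fit corrected for GC content and length. DEPTOR stands at 3.92 and RPTOR at -2.05, while MTOR, TSC1 and TELO2 change sign between the fits.

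Levels of different genes were compared per length, as RPKM, the CPM divided by the length of the gene's merged exons in kilobases. In OCI-LY1 with empty vector RHEB was highest at 30.5 RPKM, followed by RPTOR at 17.3, TELO2 at 13.2, MTOR at 12, MLST8 at 11.2 and AKT1S1 at 8.89. TSC2 at 4.11, RICTOR at 3.49 and TSC1 at 3.38 came next, and DEPTOR was lowest at 0.839. TELO2 and MTOR, MTOR and MLST8, and RICTOR and TSC1 lay within the sum of their SDs of each other.

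In VAL with empty vector the order was TELO2 at 15 RPKM, RHEB at 14.0, MTOR at 12.2, DEPTOR at 10.4 and MLST8 at 10.0. RICTOR followed at 5.83, then TSC1 at 4.48, AKT1S1 at 4.31, RPTOR at 3.33 and TSC2 at 3.10. TELO2 and RHEB, and DEPTOR and MLST8, and RPTOR and TSC2, lay within the sum of their SDs. DEPTOR was last of 10 in OCI-LY1 and RPTOR second, whereas in VAL DEPTOR was 4th and RPTOR 9th. With wild type in VAL DEPTOR stood at 6.57 RPKM, 5th after MLST8 at 10.8. With the longest coding transcript as length in place of merged exons, DEPTOR was again last in OCI-LY1 (0.856 RPKM) and was 5th in VAL (10.6), with RPTOR second (27.8) and last (5.36).

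The balance of the members shifted between the lines. RPTOR per RICTOR, per length, was 4.96 ± 0.42 (SD, n = 2) in OCI-LY1 with empty vector, 3.8 ± 0.077 with wild type and 3.58 ± 0.31 with delta27. In VAL it was 0.573 ± 0.051, 0.591 ± 0.013 and 0.611 ± 0.00066. The mTORC1 scaffold transcript thus exceeded that of mTORC2 in every OCI-LY1 library and was below it in every VAL library. DEPTOR per MTOR was 0.0703 ± 0.012 (SD, n = 2) with empty vector, 0.0359 ± 0.0018 with wild type and 0.0524 ± 0.012 with delta27 in OCI-LY1. In VAL it was 0.854 ± 0.036, 0.533 ± 0.035 and 0.742 ± 0.021. Ratios of transcripts do not give the amounts of protein.

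Exons shared with other genes limit some of these levels, because the strand setting of the counting is not given in the sources used here. AKT1S1 shares 6.8% of its exon bases with TBC1D17 on the other strand. TSC2 shares 4.0% with PKD1 and 2.0% with NTHL1, both on the other strand. MLST8 shares 3.8% with BRICD5, and DEPTOR shares 9.6% with the noncoding gene AP005717.1, which had 14 counts over all 12 libraries.

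The genes whose pattern was most like that of DEPTOR were ranked by Pearson's r of log2 CPM over the 12 libraries after each line's mean was removed. Among 10992 protein-coding genes the closest 5 were CTC1 (r = 0.945), PLCXD1 (0.934), SCAPER (0.930), YARS1 (0.928) and CHD2 (0.923). SCAPER averaged 4.21, 2.39 and 3.43 CPM with empty vector, wild type and delta27 in OCI-LY1, and 3.12, 2.26 and 3.28 in VAL. CHD2, a chromatin remodeller, averaged 180, 148 and 168 CPM in OCI-LY1 and 198, 166 and 186 in VAL. Both were lowest with wild type, as the choice by likeness requires. Among the members TSC1 was most like DEPTOR (r = 0.769, rank 121) and the other 8 had r between -0.323 and 0.289. These values describe the libraries and carry no test.

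The rest of the pathway was read from 77 further genes in 9 lists, of which 76 could be tested (GRB10 was too low). With delta27 against empty vector in OCI-LY1, 12 were called higher and 9 lower by edgeR, where 19.6% of all genes were called and 10.4% were called higher. The median log2 fold change was -0.04 beside -0.03 over all genes. In VAL 3 were higher and 0 lower, where 5.13% of all genes were called (median 0.01 beside -0.01). With wild type against delta27 1 was higher and 1 lower in OCI-LY1, beside 3.05% of all genes (median 0.00 beside 0.00). In VAL 3 were higher and 6 lower, beside 9.07% of all genes (0.02 beside 0.00). With wild type against empty vector 9 were higher and 4 lower in OCI-LY1, beside 6.23% and 5.21% of all genes, and 2 higher and 0 lower in VAL, beside 1.62% in either direction.

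LPIN1, a phosphatidate phosphatase controlled by mTORC1, rose with delta27 in both lines. It went from 129 to 163 CPM in OCI-LY1 (log2 fold change 0.34, SE 0.06, adjusted p = 2.54e-05 by edgeR's quasi-likelihood test) and from 73.3 to 85.7 in VAL (0.23, SE 0.06, adjusted p = 0.0209, same test). LARP1, which binds messages of the translation machinery and is an mTORC1 substrate, also rose with delta27 in both. It went from 428 to 497 CPM in OCI-LY1 (0.22, SE 0.05, edgeR adjusted p = 0.00314) and from 423 to 484 in VAL (0.19, SE 0.05, edgeR adjusted p = 0.0273). With wild type LARP1 averaged 480 CPM in OCI-LY1, also called higher than empty vector by edgeR (0.17, SE 0.05). In VAL it averaged 422 CPM with wild type, not called. SEH1L, a subunit of GATOR2 and of the nuclear pore, rose with delta27 in OCI-LY1 from 196 to 239 CPM (0.29, SE 0.05, edgeR adjusted p = 5.12e-05). In VAL LPIN1 had a log2 fold change of 0.15 and lost its call without empty vector library 1 (edgeR adjusted p = 0.338) or delta27 library 1 (0.431). LARP1 lost its VAL call when any 1 of the 4 VAL libraries of these groups was left out (edgeR adjusted p of 0.0911 to 0.309), with its log2 fold change at 0.17 to 0.20. With VAL fitted alone neither was called (0.23 with edgeR adjusted p = 0.095 for LPIN1, and 0.20 with 0.125 for LARP1).

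DDIT4 and SESN2 fell with delta27 in OCI-LY1. DDIT4 (REDD1), which acts through the TSC complex under stress, fell from 64.5 to 37.0 CPM (log2 fold change -0.80, SE 0.07, edgeR adjusted p = 1.68e-09). SESN2, a leucine sensor that restrains GATOR2, fell from 22.4 to 16.0 CPM (-0.48, SE 0.09, edgeR adjusted p = 8.13e-05). They were the 1 gene called lower in each of their lists, beside 0 of 9 called higher among the amino acid sensors and 4 of 15 among the upstream regulators. In VAL DDIT4 had a log2 fold change of -0.30 (SE 0.09) and SESN2 one of 0.10 (SE 0.07), neither called.

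Between wild type and delta27, EIF4E, the cap-binding translation factor, was lower with wild type in both lines. It averaged 73.0 against 84.6 CPM in OCI-LY1 (log2 fold change -0.21, SE 0.06, edgeR adjusted p = 0.0253) and 76.9 against 89.1 in VAL (-0.21, SE 0.06, adjusted p = 0.0128, same test). After the GC and length correction neither was called (-0.16 with edgeR adjusted p = 0.0585, and -0.11 with 0.173). Leaving out either OCI-LY1 wild-type library or delta27 library 2 (adjusted p of 0.0846 to 0.339), or VAL wild-type library 1 or either delta27 library (0.0922 to 0.147), also ended the EIF4E calls. Against empty vector, wild type gave EIF4E 0.05 (SE 0.06) in OCI-LY1 and -0.06 (SE 0.06) in VAL, neither called. Delta27 gave it 0.26 (SE 0.06) in OCI-LY1, called higher by edgeR, and 0.15 (SE 0.06) in VAL, not called. SESN1, another sestrin and a p53 target, was higher with wild type in OCI-LY1, at 15.1 against 11.6 CPM (0.38, SE 0.11, edgeR adjusted p = 0.0439). The SESN1 call was lost with DESeq2 (adjusted p = 0.12), with limma-voom (0.0734) and without any of 7 libraries in turn, up to 0.643 without OCI-LY1 delta27 library 2. In VAL SESN2 was lower with wild type, at 28.0 against 35.4 CPM (-0.33, SE 0.08, edgeR adjusted p = 0.00412). SGK1, a kinase activated by mTORC2, was higher with it, at 7.12 against 4.86 CPM (0.55, SE 0.17, edgeR adjusted p = 0.0311). DESeq2 gave no adjusted p for SGK1 there. LAMTOR4, a Ragulator subunit, was higher with it at 65.5 against 56.4 CPM (0.22, SE 0.06, edgeR adjusted p = 0.0227), and had 0.09 (adjusted p = 0.402) once corrected. Without VAL wild-type library 1, SGK1 and LAMTOR4 had edgeR adjusted p of 0.313 and 0.458, and without delta27 library 2 SESN2 had 0.171, SGK1 0.188 and LAMTOR4 0.0927. Without delta27 library 1 the p was 0.111 for SGK1 and 0.181 for LAMTOR4.

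Against empty vector, where the DEPTOR contrast was taken, wild type in OCI-LY1 gave LPIN1 0.31 (SE 0.06), SESN1 0.62 (SE 0.11), DDIT4 -0.68 (SE 0.07) and SESN2 -0.44 (SE 0.09), all called by edgeR. In VAL the 2 called were the phosphatidylinositol 3-kinase subunits PIK3CD, from 150 to 180 CPM (0.26, SE 0.05), and PIK3CA, from 59.3 to 69.4 CPM (0.23, SE 0.06). PIK3CD lost its call without VAL empty vector library 1, and PIK3CA with DESeq2 and without 7 of the 12 libraries in turn.

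DEPTOR protein is removed through the ubiquitin ligase that contains BTRC or FBXW11, after priming by CSNK1A1, and OTUB1 protects it. Of the 7 genes in this list edgeR called 0 with delta27 against empty vector in OCI-LY1 (0 at an unadjusted p under 0.05, 0 by DESeq2 or limma-voom), beside 19.6% of all genes. In VAL the call was 0 as well, with 1 (OTUB1) at an unadjusted p under 0.05 and 0 by DESeq2 or limma-voom, beside 5.13% of all genes by edgeR. OTUB1 was the 1 gene of the list called between wild type and delta27 in VAL, beside 9.07% of all genes, at 100 against 89.3 CPM (log2 fold change 0.17, SE 0.05, edgeR adjusted p = 0.0436; 0 called by DESeq2). Between the lines, BTRC was higher in VAL with delta27 by 1.81 (SE 0.10) and CSNK1A1 lower by -0.58 (SE 0.05). DEPTOR and BTRC were thus both higher in VAL.

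The pathway genes were called between the lines about as often as genes in general. With delta27, 25 of 76 were higher and 35 lower in VAL by edgeR, beside 37.2% and 35.7% of all genes, with a median log2 fold change of -0.11 beside 0.02. Of 10 Rag GTPase and Ragulator genes, which dock mTORC1 at the lysosome, 1 was higher and 8 lower in VAL, beside the same 37.2% and 35.7% (median -0.56 beside 0.02). RRAGA averaged 31.6 CPM in VAL and 73.9 in OCI-LY1 with empty vector (log2 fold change -1.22, SE 0.06), and LAMTOR4 63.0 and 117 (-0.89, SE 0.06). RPTOR and RHEB, the scaffold and the activator at the same site, were lower in VAL too.

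SESN3, a further sestrin, averaged 42.6 CPM in VAL and 0.614 CPM in OCI-LY1 with delta27 (log2 fold change 6.11, SE 0.16). PRKCA, a protein kinase C phosphorylated through mTORC2, averaged 11 and 70.1 CPM (log2 fold change -2.67). PRR5, an mTORC2 subunit singled out after its values were seen, had 0 counts in all 6 OCI-LY1 libraries, which allows up to 0.0217 CPM over the line. It had 0.747 to 1.71 CPM in the 6 VAL libraries. VAL thus had more of DEPTOR and SESN3, and less of RPTOR, RHEB and AKT1S1, than OCI-LY1 in each of the 3 construct groups.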

How the data were processed

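Each of the 12 deposited tables, 1 per library, holds unnormalised read counts by Ensembl gene, judged from the values. The labels give a stranded kit for polyadenylated RNA. The submitters' processing notes name HTSeq 0.11.2, STAR 2.6.1b, DESeq2, edgeR and R 3.6.1, with the builds GRCh38 and hg38; the annotation release and strand setting are not given in the sources used here. Closing lines that name no gene were kept out; those for no feature, ambiguity and low quality held at most 10.82%, 2.55% and 6.9% per library. Of 60603 genes, 60306 had a symbol and 58528 matched GENCODE 29.

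Counts were fitted here with edgeR 4.0.16 in R 4.3.3: TMM scaling, a filter at a minimum count of 10, a robust quasi-likelihood fit with 6 group means, two-sided tests and Benjamini-Hochberg adjustment over 17057 genes at a threshold of 0.05. It had 6 residual degrees of freedom (median 35.2 with shared information) and a common biological coefficient of variation of 3.7%. The fit was tested on simulated data. Replicates are separate transductions of 1 line, so p-values measure the spread between those.

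The members, lists and tests were chosen with earlier results of these data known. Named genes were all 10 members, BCL7A, the 5 genes most like DEPTOR (mean of 1 CPM or more), and the 2 pathway genes per direction and contrast with the smallest p among those called; others are examples. Some items that these rules select are not reported here. Alternatives were RLE scaling, DESeq2 1.42.0, limma-voom (3.58.1), no filter, 1 CPM in every group, each line alone, a replicate block, correction for GC content (known for 98.9% of genes) and length, and each library left out. The longest transcript as gene length, and neighbouring genes, were added after seeing the data.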

Additional observations from a re-analysis of the deposited data

Results flagged for a closer look

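Among BCL7A, the 10 members and the 76 pathway genes tested, the effect of delta27 against empty vector differed between the lines for 3 genes by edgeR's quasi-likelihood test of the difference, which called 258 of all 17057 genes (1.51%). BCL7A rose less in VAL than in OCI-LY1, by -1.13 on the log2 scale (SE 0.07, adjusted p = 2.31e-14), from a higher empty vector level in VAL (287 against 156 CPM).

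DDIT4 fell more in OCI-LY1 than it shifted in VAL, a difference of 0.50 (SE 0.12, adjusted p = 0.0237 by edgeR); this was lost with limma-voom (adjusted p = 0.0683) and after the GC and length correction (0.36, adjusted p = 0.0885), and without OCI-LY1 empty vector library 2, OCI-LY1 delta27 library 2 or any of the 4 VAL libraries of these groups (edgeR adjusted p of 0.096 to 0.218). SESN2 differed by 0.59 (SE 0.11, adjusted p = 0.00425 by edgeR) and lost its call without the second OCI-LY1 delta27 library (adjusted p = 0.0961) or the second VAL delta27 library (0.0946).

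MLST8 with wild type against empty vector had a log2 fold change of 0.11 in VAL and -0.04 in OCI-LY1, with the libraries apart in opposite directions. In OCI-LY1 they were barely apart, at 47.1 and 47.0 CPM with wild type and 47.4 and 49.2 with empty vector. Each group holds 2 libraries, and the share of all genes with libraries apart is not given here. The difference between the lines was not tested, and neither change was called.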

How the results depend on the processing

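Single-gene values were compared with their alternatives where any setting called the gene. Of these comparisons 1587 kept their side of the threshold, 105 lost a call and 25 gained one, and 6 others changed sign. Sign was compared only where the main or the alternative fit called the gene. The 6 changes of sign came with the GC and length correction, and edgeR called none of the 6 in both fits. MTOR between the lines, uncalled before it, had -0.24 with empty vector (edgeR adjusted p = 1.16e-05) and -0.23 with delta27 (1.26e-05). TELO2 in OCI-LY1 delta27 against empty vector, also uncalled before it, had 0.20 (edgeR adjusted p = 0.00845). Between the lines TSC1 lost its call with wild type (-0.07, edgeR adjusted p = 0.251) and with delta27 (-0.08, 0.168). TELO2 lost its call with delta27 (-0.03, edgeR adjusted p = 0.678). The cause was not tested. The number of the 9 members called moved as follows: OCI-LY1 wild type against empty vector from 2 to 1 with DESeq2, limma-voom or the 1 CPM filter and to 3 with the correction (TELO2, 0.26, edgeR adjusted p = 0.000889); OCI-LY1 delta27 against empty vector from 1 to 3 with the correction; VAL delta27 against empty vector from 1 to 0 with limma-voom or VAL alone and to 2 with no filter or the correction; VAL wild type against delta27 from 0 to 1 with no filter or the correction; and the line difference of delta27 against empty vector from 0 to 1 with no filter. Leaving out single libraries gave 0 to 2, 1 to 2 and 0 to 0 in OCI-LY1 and 0 to 1, 0 to 2 and 0 to 3 in VAL (wild type against empty vector, delta27 against empty vector, wild type against delta27), 6 to 8, 6 to 7 and 6 to 7 between the lines (empty vector, wild type, delta27), and 0 to 2 for both line differences of a contrast. RPTOR per RICTOR became 5.62 in OCI-LY1 and 0.649 in VAL with the longest transcript as length.

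DEPTOR in OCI-LY1 wild type against empty vector lay between -0.91 and -0.66. Under 4 of 20 alternatives, limma-voom (-0.77) among them, it was not on the called side of the threshold there. No test is read from this contrast. TELO2 between the lines with delta27 lost its call under 14 alternatives. Counts over all genes moved by over 1.5 times in OCI-LY1 wild type against delta27 (521; 323 with DESeq2, 1086 with the line alone), VAL wild type against empty vector (276; 146 alone, 431 corrected), VAL delta27 against empty vector (875; 321 alone, 1314 corrected), VAL wild type against delta27 (1547; 907 alone), and the line differences of delta27 against empty vector (258; 400 with no filter) and of wild type against delta27 (77; 37 with limma-voom, 150 corrected). Single libraries mattered as much: the ranges were 744 to 2836, 1265 to 4023, 75 to 943, 112 to 497, 145 to 1524 and 438 to 2417 for the 6 construct contrasts in the order of the member counts, and 24 to 774 and 23 to 631 for the 2 line differences.

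Replicate numbers do not pair the samples: deviations of same-numbered libraries correlated at -0.051 to 0.043. With the number as a replicate block, 1911, 3260, 527, 281, 893 and 1518 genes were called in those contrasts against 1951, 3338, 521, 276, 875 and 1547. Of 89 single-gene results under the block 87 had the same call, and TELO2 between the lines with empty vector and delta27 lost it. At 29 to 57 counts per library, DEPTOR in OCI-LY1 has the fewest reads of the 10 members. SESN3 (0.335 to 0.677 CPM) and SGK1 (0.0838 to 0.608 CPM) had fewer there.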

Other observations

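The line difference of each member was set beside the 10 nearest tested protein-coding genes on its chromosome, a comparison added after the data were seen. In the delta27 libraries DEPTOR differed by 3.92, outside the range of its neighbours, which ran from -0.04 to 2.37 with a median of 0.25 over 5522 kb. MTOR (0.10, edgeR adjusted p = 0.122, not called) was also outside its range, from -1.74 to 0.04. RPTOR differed by -2.05, inside the range of its neighbours, from -3.66 to 4.56 with a median of 0.17 over 1089 kb. AKT1S1 (-1.16) and RHEB (-1.20) were also inside theirs, which ran from -1.31 to 5.15 and from -2.01 to 4.89. So were RICTOR, MLST8, TSC1, TSC2 and TELO2. How often any gene lies outside such a range was not tested, so nothing is read from the places of DEPTOR and MTOR.

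Markers of other tissues differed between the lines. EPCAM stood at 16.7 to 25.8 CPM in OCI-LY1 and at 0 in VAL, and PECAM1 at 1.31 to 2.18 CPM in OCI-LY1 and 30.4 to 35.1 in VAL.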
